A study of Mus musculus with 2 samples.

Results

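Imprinted genes, which are transcribed mainly or only from the copy inherited from one parent, were examined in mouse embryoid bodies with and without FGF10. The members were a list of 37 genes, and a gene's values came from array probe sets whose annotation gives that gene alone. Of the 37, 35 had at least 1 such probe set (94 probe sets in all), 28 passed the filter on low signal and 7 did not, and H19 and Zrsr1 had no probe set named for them alone. On the whole array, 18193 genes had such a probe set and 11122 passed the filter.

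The embryoid bodies, cell aggregates in which embryonic stem cells start to differentiate, were made from the CGR8 embryonic stem cell line of strain 129, kept in serum and leukemia inhibitory factor with no feeder cells and aggregated in hanging drops. For the control group there was 1 array, of embryoid bodies kept in differentiation medium with no added agent. For the FGF10 group there was 1 array, of embryoid bodies in the same medium with recombinant FGF10, a secreted fibroblast growth factor, at 100 ng/ml. Both are dated to day 2 in the sample titles, while the series' design puts the RNA 24 h after FGF10 was given to 2-day-old bodies, so the exact stage is uncertain. With 1 array in each group no replicate error can be given and no test was made, so each difference describes this pair of arrays and not the conditions.

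At an imprinted locus a stretch of DNA is methylated in the egg or in the sperm and keeps that mark after fertilisation, and the mark decides which parental copy of the neighbouring genes is read. Many such genes act on growth of the embryo and placenta, with growth-promoting genes often read from the father's copy and growth-limiting genes from the mother's copy. Cultured embryonic stem cells can lose these marks. An array signal adds up both copies of a gene, so it cannot tell from which parent the RNA came, and the assignment of a gene to the maternal or paternal allele below is textbook background, not a measurement.

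Signal is the deposited MAS5 value, in arbitrary units, and a ratio is log2 of FGF10 over control signal, centred on the array's median ratio. A gene was read from its brightest probe set, and counted as higher or lower when it differed at least 1.5-fold (a log2 ratio of 0.585). The only error that can be measured here is technical, the SD between probe sets of the same gene, which was 0.385 log2 units in the dimmest of 4 equal groups of genes by signal, 0.327 and 0.236 in the next groups and 0.197 in the brightest. It says nothing of variation between cultures, nor of array error that the probe sets of a gene share. The array medians were 75.7 for control and 77.9 for FGF10, and the filter lay at a mean signal of 76.35. All 9 embryonic stem cell markers passed the filter, with Pou5f1 at 8157.8 and 8787.2, Sox2 at 5812.7 and 5941.8 and the dim Esrrb at 141.7 and 126.3, control first. Of these 9, 7 lay within 1.5-fold, and Utf1 (4192.4 and 2589.8, -0.73) and Zfp42 (1397.4 and 873.9, -0.71) were lower with FGF10. Primitive streak markers were at least 1.5-fold higher with FGF10 in 8 of 8 cases, with a median of 2.3. Over all genes 5.41% were higher and 4.86% lower. Both marker lists were chosen with earlier results of these data known, so these counts are description only.

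Most imprinted genes lay within 1.5-fold on the 2 arrays. Among the 28 members measured, 4 (14.3%) were at least 1.5-fold higher with FGF10, where 5.41% of all genes were. At least 1.5-fold lower were 2 (7.14%), where 4.86% of all genes were. The higher ones were Asb4, Copg2, Nnat and Sgce, the lower ones Phlda2 and Cdkn1c, and 22 lay within 1.5-fold. None reached 2-fold, a size that 1.32% of all genes passed upward and 1.29% downward. The median log2 ratio was 0.17, against -0.027 over all 11122 genes, and 20 of the 28 (71.4%) were above 0, against 46.5% of all genes. By the technical SD of their own signal group, 10 members (35.7%) were higher by more than 1 SD, against 17.0% of all genes. Lower by more than 1 SD were 4 (14.3%), against 21.9%, and 14 lay within it. The members were filtered on the mean of both arrays, and 1 of them, Asb4, had a signal under the filter on 1 array. That was the control array, so Asb4 passed only through its FGF10 signal, where it is high. With both signals required to pass the filter, 3 of 27 members were higher, beside the 5.41% of all genes at the main filter. The brightest probe sets of Meg3, Plagl1, Dlk1 and Gnas are of the _x_at or _s_at type, which can also bind related transcripts.

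**Figure D1:**
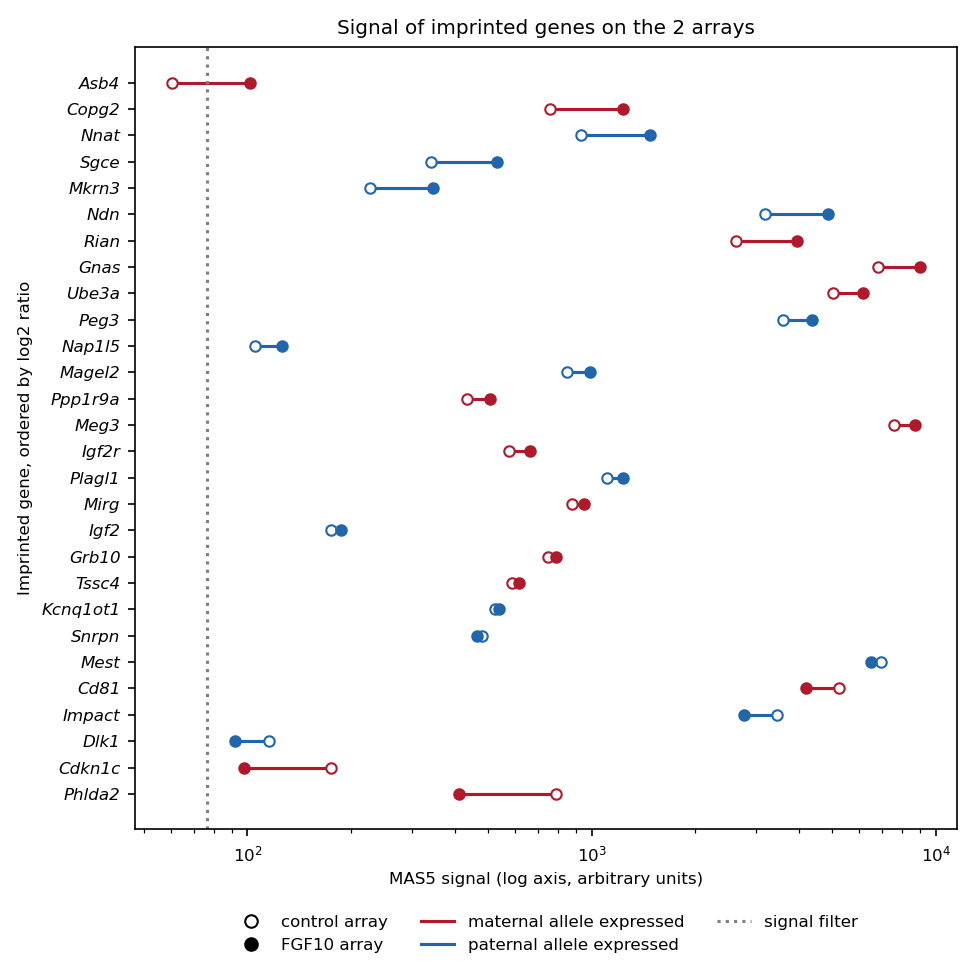
MAS5 signal (log axis, arbitrary units) of the 28 imprinted genes that passed the filter, on the control array (open circle) and the FGF10 array (filled circle), ordered by log2 ratio from lowest at the bottom, with 1 array per group and so no error bars. Red marks genes expressed from the maternal allele and blue those expressed from the paternal allele; Phlda2 and Cdkn1c lie lower with FGF10, and Asb4 starts left of the dotted signal filter of 76.35.

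Of the 6 members past 1.5-fold, 3 had exactly 1 promoter entry, and the 250 bases upstream of their start sites are shown here because they are the DNA just before the start of members that differed. The sequences are from RefSeq, build GRCm38.p6, 5′ to 3′ on the gene's own strand, with CG dinucleotides, the sites of DNA methylation, in capitals.
Phlda2 (chr7:143502525-143502774, minus strand): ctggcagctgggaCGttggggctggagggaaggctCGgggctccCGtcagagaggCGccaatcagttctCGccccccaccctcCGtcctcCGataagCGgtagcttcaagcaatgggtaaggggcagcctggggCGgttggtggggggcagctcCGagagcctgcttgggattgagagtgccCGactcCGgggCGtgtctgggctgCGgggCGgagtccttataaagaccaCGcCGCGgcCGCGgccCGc
Nnat (chr2:157559828-157560077, plus strand): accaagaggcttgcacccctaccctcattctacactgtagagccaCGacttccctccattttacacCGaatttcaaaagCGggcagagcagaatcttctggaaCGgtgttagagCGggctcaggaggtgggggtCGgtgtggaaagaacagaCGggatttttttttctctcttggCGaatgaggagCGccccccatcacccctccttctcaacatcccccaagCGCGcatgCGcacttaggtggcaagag
Copg2 (chr6:30896795-30897044, minus strand): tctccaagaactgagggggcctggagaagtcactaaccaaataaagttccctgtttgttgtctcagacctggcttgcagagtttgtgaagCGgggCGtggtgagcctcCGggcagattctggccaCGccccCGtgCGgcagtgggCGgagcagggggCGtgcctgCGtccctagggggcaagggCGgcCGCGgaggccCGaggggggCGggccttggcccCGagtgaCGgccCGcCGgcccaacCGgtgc
These windows hold 21 CG dinucleotides for Phlda2, 12 for Nnat and 19 for Copg2. Over 300-base windows that run 50 bases past the start, the 45 windows of the 30 members with an entry had a median of 14 CG dinucleotides (0 to 48), and all 32851 windows had a median of 7 (0 to 67). The hexamer TGCCGC, which the imprint-protecting zinc finger protein ZFP57 binds when methylated, was searched on both strands (also as GCGGCA). It was present in 11 of the 45 member windows (24.4%) and in 11.6% of all windows, and in the 250 bases shown it occurs 1 time in Copg2 and 0 times in Phlda2 and Nnat. The letters TATAAA, searched on both strands (also as TTTATA), were in 20% of member windows and 13.6% of all windows, and occur 1 time in the Phlda2 sequence shown. TGCCGC itself holds a CG, and its shares were not adjusted for the higher number of CG dinucleotides in member windows. Some genes also have several windows. Methylation was not measured, and a match is a description of the letters only.

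Among the growth regulators, the maternally expressed growth limiters of the Kcnq1 domain stood lower. Phlda2, which codes for a small pleckstrin-homology-like protein that restricts growth of the placenta, had a signal of 789 without FGF10 and 411.5 with it. That is 1.96-fold lower with FGF10 (log2 ratio -0.97), 2.98 times the technical SD at its signal, and 1.36% of all genes had a lower ratio. Cdkn1c, the gene for the cyclin-dependent kinase inhibitor p57, went from 175 to 97.6, which is 1.84-fold lower (-0.88) and 2.28 times the technical SD. It lies in the dimmest group of genes, and each of these genes rests on 1 probe set. The other growth regulators were near equal on the arrays. Igf2, a paternally expressed growth factor, had signals of 175.4 and 187.1 (0.059), with its other probe set below the filter. Igf2r, the receptor that removes IGF2 from the cell surface for breakdown, had 576.6 and 663.3 (0.17), and 0.066 on its other probe set. Grb10, an adaptor that dampens insulin and IGF receptor signalling, had 745.2 and 789.9 (0.05), while its other probe sets were at -0.11 and -0.15. Dlk1, a paternally expressed transmembrane protein related to Notch ligands, was dim at 115.8 and 92 (-0.37), less than 1 technical SD. Over the 6 growth regulators, 2 were lower (4.86% of all genes were), 0 were higher (5.41% of all genes were) and the median was -0.16.

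The Kcnq1 domain, in which a paternally expressed antisense RNA silences neighbours on its own chromosome, holds 8 members that lie within a run of 14 genes in the RefSeq table. Its 5 measured members had a median of -0.35, with 0 higher at 1.5-fold and 2 lower, the same Phlda2 and Cdkn1c, against 5.41% and 4.86% of all genes. Kcnq1ot1, the silencing RNA, was nearly the same on both arrays at 525.5 and 537.7 (-0.0012), although its other probe sets were at 0.27 and 0.48. Cd81, a tetraspanin surface protein whose imprinting is known mainly from placenta, had 5234.3 and 4204.4 (-0.35, 1.78 times the technical SD). Tssc4, whose imprinting was also counted as limited, had 585.9 and 614 (0.033). Within this domain Phlda2, Cdkn1c and Cd81 had ratios below 0, while Tssc4 and the brightest probe set of Kcnq1ot1 were near 0. The remaining members of the domain, Kcnq1, Slc22a18 and Ascl2, were below the filter. Their brightest probe sets had lower signals with FGF10, but at a level that cannot be told from background.

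Phlda2 and Cdkn1c are also known from extraembryonic tissue, so the markers of those tissues are given beside them. In bulk RNA, fewer cells of a type and less RNA per cell cannot be told apart. These marker lists were chosen with earlier results of these data known. Of 12 extraembryonic endoderm markers, all of them above the filter, 7 were at least 1.5-fold lower with FGF10 and 1 was higher. Over all genes 4.86% were lower and 5.41% higher, and the median of these markers was -0.6. Their summed signal was 23018.8 without FGF10 and 16734.9 with it. Apoa1 (-1.27), Rhox5 (-1.03), Hnf4a (-0.90), Cubn (-0.76) and Ttr (-0.63) were lower, and Gata6 (0.96) was higher. Other probe sets of Hnf4a reached 0.15. Of 11 trophoblast markers, 6 were below the filter, among them Cdx2 (63.8 and 32.4), Elf5 (28.5 and 31.1) and Tpbpa (3.7 and 30.9), 3 had no probe set, and Krt7 and Tfap2c were measured. Of those, Tfap2c (122.6 and 396.6, 1.66) was higher and Krt7 (-0.23) was within 1.5-fold. The summed signal over the list was 549.4 and 748, a rise smaller than that of Tfap2c alone. That sum also holds the genes below the filter, among them the member Ascl2. Of 10 fibroblast markers, 6 were below the filter, Col1a1 (9.4 and 8) and Col3a1 (25.5 and 39.8) among them, and their summed signal was 1358.5 and 1401.3. In that list Pdgfrb (1.97, from a control signal of 36.4 under the filter) was higher and Thy1 (-0.61) lower. The part of these cell types in the ratios of Phlda2 and Cdkn1c was not tested.

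The maternally expressed noncoding RNAs of the Dlk1-Meg3 domain had ratios above 0 on every probe set, and Rian had the highest of them on its brightest probe set. Rian, which carries small nucleolar RNAs in its introns, had 2632.8 in the control and 3964.4 with FGF10 (0.56, 2.82 times the technical SD). Its 4 probe sets lay between 0.37 and 0.56, with a mean of 0.48 and an SD of 0.08 over probe sets, which share their RNA and are not replicates. Meg3, a long noncoding RNA often silenced in cultured stem cells, was bright at 7571.3 and 8702.4 (0.17). Its 11 probe sets ran from 0.0053 to 0.42, with a mean of 0.17 and an SD of 0.14. Mirg, the host of a large microRNA cluster, had 876.1 and 953.1 (0.087), and 0.053 on its other probe set. These RNAs lie in a row, yet the ratio of Rian was above those of Meg3 and Mirg on most probe sets: the lowest probe set of Rian was at 0.37 and 1 of the 11 of Meg3 was higher. The protein-coding gene of the domain, Dlk1, was dim and at -0.37, and the median over the 4 was 0.13.

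**Figure D2:**
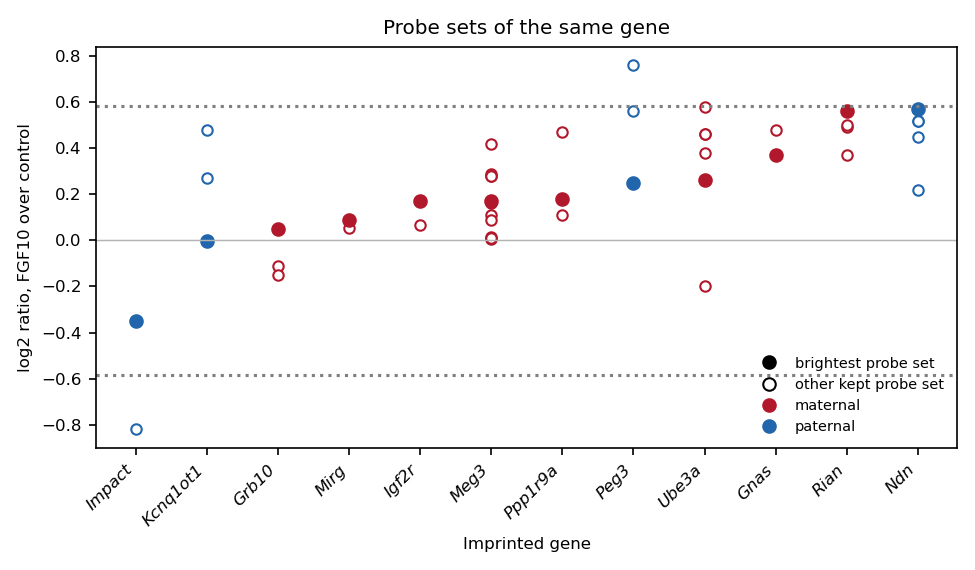
Log2 ratio of FGF10 over control on each kept probe set of the 12 imprinted genes that have more than 1, the brightest filled and the others open, in red for maternal and blue for paternal expression. Dotted lines mark 1.5-fold. All 4 probe sets of Rian and all 5 of Ndn lie above 0.2, Peg3 spans 0.25 to 0.76, and Ube3a, Grb10 and Kcnq1ot1 have probe sets on both sides of 0.

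Of 7 genes with roles in the nervous system, 1 was at least 1.5-fold higher with FGF10 (5.41% of all genes were) and 6 lay within 1.5-fold. Their median was 0.26, against 0.17 for all 28 members. Of the 7, 6 were above 0, against 71.4% of all members and 46.5% of all genes. Nnat, which codes for neuronatin, a small membrane proteolipid, had 932.9 in the control and 1477.2 with FGF10. It was 1.55-fold higher with FGF10 (0.63, 2.66 times the technical SD), on 1 probe set. Blcap, the imprinted gene in whose intron Nnat lies, had 344.4 and 410.8 (0.22). The others in this group lie in or near the Snrpn domain, the mouse counterpart of the Prader-Willi and Angelman region, apart from Nap1l5. Ndn, for the MAGE family protein necdin, had 3201.6 and 4875.9 (0.57, 2.91 times the technical SD), and its 5 probe sets ran from 0.22 to 0.57 with a mean of 0.46 and an SD of 0.14. Mkrn3, a RING finger protein gene, had 227.2 and 346.2 (0.57, 1.75 times the technical SD). Both lay just under the 1.5-fold line. Magel2, another MAGE family gene next to Ndn, had 846.5 and 988.1 (0.19). Snrpn, which codes for a spliceosomal protein, had 479.7 and 463.3 (-0.084), so the paternally expressed genes of this domain were not alike. Ube3a, the ubiquitin ligase gene of Angelman syndrome, read from the maternal copy in neurons only, had 5018.6 and 6149 (0.26). Of its 6 probe sets 5 were above 0, up to 0.58, and the second brightest was at -0.20. Nap1l5, related to nucleosome assembly proteins, was dim at 105.1 and 125.7 (0.22). Over the 5 members of the Snrpn domain the median was 0.26, with 0 past 1.5-fold.

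The Peg10 domain had 3 measured members, of which 2, Sgce and Asb4, were at least 1.5-fold higher, where 5.41% of all genes were. Each of the 2 lay within 1.5-fold under some other settings of the processing. Sgce, the paternally expressed gene for epsilon-sarcoglycan, had 341.7 and 532.3 (0.61, 1.52-fold higher, 1.85 times the technical SD). Asb4, a maternally expressed ankyrin repeat and SOCS box gene, had 60.5 and 101.8 (0.72). Its control signal was under the filter, so the size of that ratio is not known, and with the signal raised to the filter it was 0.38, within 1.5-fold. Ppp1r9a, the gene for the actin-binding protein neurabin, had 435.1 and 506.3 (0.18), with other probe sets at 0.47 and 0.11. Peg10 itself, a gene derived from a retrotransposon and needed for the placenta, was below the filter at 56.6 and 72.2.

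The other measured members were paternally expressed, apart from Copg2 and Gnas, which were counted as maternal. Ratios in this group varied by gene and by probe set. Peg3, a zinc finger protein gene known for effects on growth and maternal behaviour, had 3591.3 and 4387.5 (0.25) on its brightest probe set. Its others had 1946.4 and 3375.2 (0.76) and 1060.6 and 1597.9 (0.56), so Peg3 passed 1.5-fold on 1 of 3 probe sets and was above 0 on 3 of 3. Plagl1, a zinc finger factor that can stop the cell cycle, had 1107.3 and 1231.9 (0.12). Mest, which codes for an enzyme-like protein of the alpha/beta hydrolase fold, had 6963.7 and 6482 (-0.14). Its overlapping neighbour Copg2, a coatomer subunit gene, had 758.3 and 1236.3, which is 1.59-fold higher (0.67, 2.84 times the technical SD), on 1 probe set. The ratio of Mest was only 0.7 times the technical SD, so Mest was near equal on the arrays while Copg2 was higher with FGF10. Impact, a regulator of the amino acid sensor GCN2, had 3469 and 2780.9 (-0.35), and on its other probe set 230.4 and 133.2 (-0.82). It was the only member with more than 1 kept probe set that was below 0 on all of them. Gnas, the gene for the stimulatory G protein alpha subunit, with promoters read from either parent, had 6801.1 and 8989.4 (0.37, 1.87 times the technical SD).

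**Figure D3:**
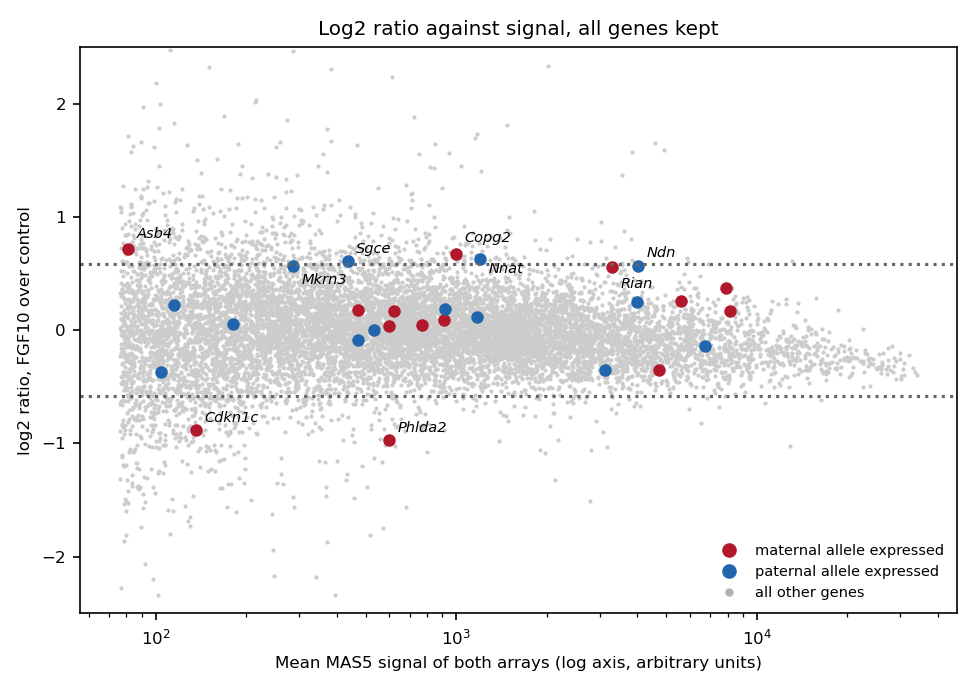
Log2 ratio of FGF10 over control against mean MAS5 signal of both arrays (log axis) for all 11122 genes kept (grey), with the 28 imprinted genes in red (maternal) or blue (paternal) and 1.5-fold as dotted lines. The axis is limited to 2.5 in either direction and leaves out 13 genes, none of them imprinted members; ratios spread more at low signal, where Asb4 and Cdkn1c lie, than at the signals of Rian and Ndn.

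The 7 members below the filter were Ascl2, Kcnq1, Slc22a18, Zim1, Dcn, Peg10 and Usp29. Their 12 probe sets had signals from 2.4 to 78.8. Ascl2, a helix-loop-helix factor needed for trophoblast, had 78.8 and 24.9, and the potassium channel gene Kcnq1 had 64.1 and 14.7. Slc22a18, a transporter gene of the same domain, had 65.8 and 6.6, and Zim1, a zinc finger gene beside Peg3, 39.4 and 2.6. Dcn, for the matrix proteoglycan decorin, was at 8.4 and 7.7, and Usp29, a ubiquitin protease gene beside Peg3, at 35.8 and 20.6. Signals this low cannot be told from background with these files, and no ratio is given.

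Maternally and paternally expressed genes had nearly the same median on their brightest probe sets. The 14 measured maternal members had a median log2 ratio of 0.17 and the 14 paternal members one of 0.15, a difference (maternal minus paternal) of 0.013. The sign of that difference depended on the processing: it was -0.15 when genes were read from their second brightest probe sets, where the maternal median was 0.059, and -0.1 without the signal filter. In each class 2 members were at least 1.5-fold higher, Asb4 and Copg2 among the maternal and Nnat and Sgce among the paternal. Asb4 passed the filter only through its FGF10 signal, and with its control signal raised to the filter it was 0.38, within 1.5-fold. The equal counts therefore rest on a gene whose ratio is not known. The lower members, Phlda2 and Cdkn1c, were both maternal, and 0 of 14 paternal members were lower. Over all genes 5.41% were higher and 4.86% lower, so with 14 genes in a class a count of 0 is close to that share. Ratios of maternal members ran from -0.97 to 0.72 and those of paternal members from -0.37 to 0.63. Above 0 were 11 of the 14 maternal and 9 of the 14 paternal members, against 46.5% of all genes. Restricted to genes whose imprinting is not limited to certain tissues or isoforms, 7 maternal members were left, again with a median of 0.17. With no replicate arrays, none of these differences between the classes was tested.

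**Figure D4:**
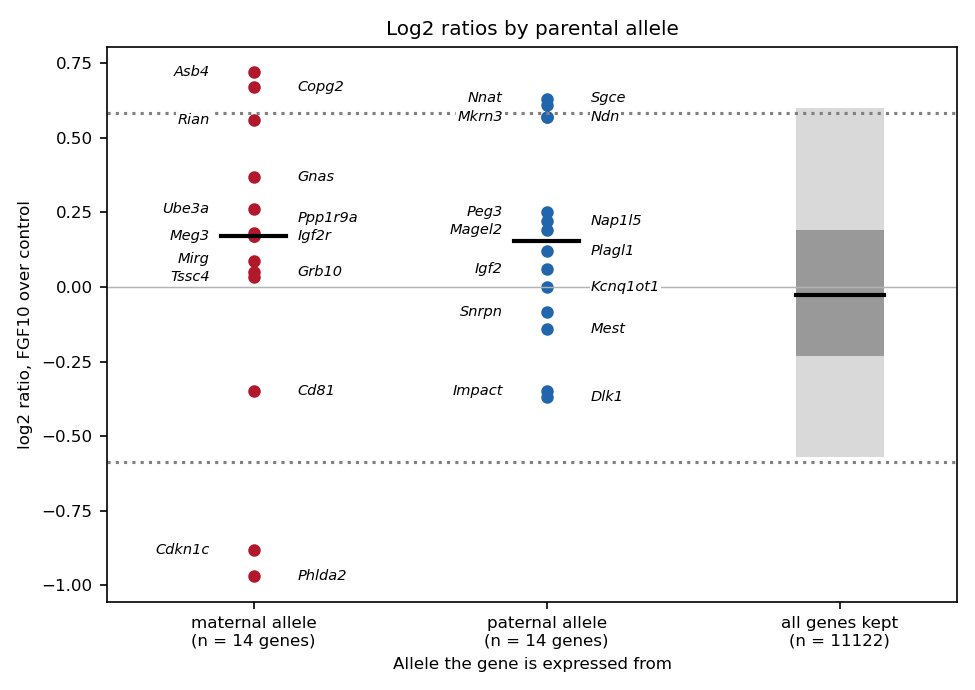
Log2 ratio of FGF10 over control for the 14 maternally and the 14 paternally expressed genes, with the median of each class as a black bar (0.17 and 0.15), beside all 11122 genes kept (median -0.027; dark grey from the 25th to the 75th percentile, light grey from the 5th to the 95th). Dotted lines mark 1.5-fold; the genes below the lower line, Phlda2 and Cdkn1c, are both maternal.

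Of 40 imprinted genes outside the member list 18 were measured, with a median of -0.091, against 0.17 for the members. Of these, 1 was higher and 2 were lower, where 5.41% and 4.86% of all genes were. Zdbf2, a paternally expressed zinc finger gene, had 785.6 and 1368.2 (0.77), whereas Cobl, an actin nucleator gene beside Grb10, had 232.7 and 145.2 (-0.71) and Ddc, for aromatic amino acid decarboxylase, on the other side of Grb10, had 359 and 226.6 (-0.70).

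Genes that set or keep imprints had a median of -0.0045 over 19 measured of 20, with 0 higher and 2 lower (5.41% and 4.86% of all genes were). Their summed signal was 90142.7 in the control and 78262.1 with FGF10. Most of that fall lay in the bright genes Dnmt3b and Hells (10039.5 and 6957.6), so it does not describe the list as a whole. Dnmt3l, the cofactor of de novo DNA methylation in germ cells, had 550.5 and 252.7 (-1.16), and Dppa3, which protects maternal methylation in the zygote, had 214.3 and 104.3 (-1.07). Within 1.5-fold but below 0 on their brightest probe sets were Hells (-0.56), a chromatin remodeller needed for DNA methylation, and the de novo methyltransferase genes Dnmt3a (-0.52) and Dnmt3b (26292.9 and 19016.6, -0.50). Other probe sets of these genes reached -0.17 for Hells, 0.53 for Dnmt3a and -0.04 for Dnmt3b. Dnmt1, the maintenance methyltransferase, was at 0.10 and Trim28, the corepressor that binds imprinted control regions, at -0.20. Zfp57, the zinc finger protein that recruits TRIM28, was below the filter at 67.1 and 75.3.

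In the insulin and IGF pathway, on which Igf2, Igf2r and Grb10 act, the median was 0.056 over 12 measured of 17. There 2 were higher and 1 lower, where 5.41% and 4.86% of all genes were. The receptor genes Insr (327.7 and 594.7, 0.83) and Igf1r (375.7 and 582.4, 0.60, with other probe sets up to 0.89) were higher. Igfbp5, an IGF-binding protein gene, was lower at 134.6 and 59 (-1.22), the FGF10 signal being under the filter. Igf1 was below the filter at 57 and 32.7.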

How the data were processed

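The authors deposited MAS5 signal, which is linear; the submitters' processing notes name MAS5 and give no version or settings. Both arrays had a trimmed mean of 500.003, as scaling to a common target leaves, so a ratio shows a gene against the other genes of the array. Probe sets (45101, of which 64 were chip controls) were named from the platform annotation: 34945 had 1 gene, 932 several and 9160 none, and only the first kind was used. All 37 members were found in the RefSeq gene table for GRCm38.p6, and 0 probe sets carried one under another symbol. The files name no genome build.

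Each ratio was log2 of FGF10 over control signal, without an offset, centred by subtracting 0.034, the median of the kept probe sets. Probe sets were kept at a mean signal of at least 76.35, the median of those that are not controls (22524 kept, 19966 with 1 gene). Technical SD came from 5213 genes, as the root mean square difference in ratio between the brightest and second brightest kept probe set, scaled down to 1 probe set. With 1 array per group no test was made, and the number of arrays limits the precision. The members, their roles and the 8 other lists were chosen with earlier results of these data known. Every member is accounted for, and from other lists at most 6 genes past 1.5-fold were named, with a few genes of known role added after their values were seen. Calculations used Python 3.11.15 with pandas 2.3.3, numpy 2.4.6 and statsmodels 0.14.6, and the procedure was tested on simulated data.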

Additional observations from a re-analysis of the deposited data

How the results depend on the processing

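The 14 other settings planned and 1 added after seeing the data (both signals above the filter) left the signs of the 6 members past 1.5-fold as they were wherever these were measured. Several settings could not have changed them. Each of the 6 had 1 kept probe set, so reading or averaging other probe sets left its ratio alone. Settings of the fold threshold or the gene classes recomputed no ratio, and dropping the centring shifted ratios by only 0.034. Without the signal filter, which adds the 7 dim members, the median over members was 0.1, the maternal median 0.064, the maternal minus paternal difference -0.1, and 7 members were lower. Read from second brightest probe sets, the maternal median was 0.059 and the difference -0.15, and Peg3 (0.76) and Impact (-0.82) passed 1.5-fold. Without centring 7 members were higher, Rian, Ndn and Mkrn3 being added, and with an offset 2 were, Asb4 and Sgce being lost. The filter at the 75th percentile left 1 lower member, Phlda2, since Cdkn1c was not measured. At the looser fold threshold 8 of the 28 members were higher and 5 lower, where 14.7% and 16.6% of all genes were. At 2-fold 0 members were higher and 0 lower, where 1.32% and 1.29% of all genes were. After quantile or loess normalization Sgce lay within 1.5-fold and Rian and Ndn passed it, and with dim signals raised to the filter Asb4 was lost. The difference between maternal and paternal medians was also below 0 under quantile (-0.01) and loess (-0.013) normalization, with the mean over probe sets (-0.064) and without _x_at and _s_at probe sets (-0.068). Values in the dimmest signal group rest on signals close to background. No paired analysis was possible because each group has 1 array.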

Other observations

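Some probe sets are annotated with a member and another gene and were left out of the member values. The probe set annotated with both Mir675 and H19 had a signal of 1503.2 without FGF10 and 1487.5 with it (log2 ratio -0.049). Of 6 probe sets annotated with both Snurf and Snrpn, 4 passed the filter, with ratios from -0.023 to 0.029. The brightest had 12788.9 and 12890.1. The probe set shared by Airn and Igf2r had 4.9 on both arrays.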
